A study of Homo sapiens with 118 samples.

Results

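Vorinostat at its middle concentration, 3.643 µM (C3), was compared with vorinostat at its lowest concentration, 0.404778 µM (C1), in HepaRG cells. All libraries labelled as vorinostat C3 or vorinostat C1 were used, 3 in each group, which made 6 of the 118 libraries and 40 groups of the series. HepaRG is an established human liver cell line that is grown in a differentiated state and then contains hepatocyte-like cells together with other epithelial cells. The cells had been thawed as differentiated cells, kept in culture, and then exposed for 72 h with the chemical renewed daily. The labels tie the libraries of each group to HepaRG batches B326, B330 and B303, here called batches 1, 2 and 3, and all vorinostat libraries lay on plate E. Libraries from cells without an inhibitor were not analysed here, so C1 is the reference and both groups had received vorinostat. A change that C1 had already brought about in full stays invisible here. The C3 concentration was 9 times that of C1.

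Vorinostat is a hydroxamic acid that inhibits zinc-dependent histone deacetylases, the enzymes that take acetyl groups off lysines of histones and other proteins. Inhibitors of these enzymes raise histone acetylation and are known to change transcription in both directions, to slow cell division and, in several cell types, to alter differentiation. Hepatocytes are known for secreting most plasma proteins, for making bile acids, and for taking up and oxidising foreign and endogenous compounds with transporters and cytochrome P450 enzymes. TempO-Seq was the assay. Paired probes that lie side by side on a transcript are joined by ligation, and the joined products are counted by sequencing. The table has a row for each detector probe, called a feature here and named by gene symbol and probe number. Levels are given as CPM, the counts scaled to a common library size after TMM normalisation. Since probes differ in efficiency, levels were compared between groups and not between genes, and the highest level of a list means the highest CPM of a probe. The cells were lysed as a whole culture, so fewer cells of a type and less RNA per cell cannot be told apart.

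The C1 libraries held 1785295, 4134455 and 3196964 counts and the C3 libraries 1678473, 1543972 and 1420280, so every C3 library was shallower than every C1 library. Depth and concentration cannot be told apart in these 6 libraries, and the number of calls with all libraries thinned to equal totals is given beside the main count. Between 11331 and 12936 features had at least 5 counts in a library. The correlation of log2 CPM was 0.963 to 0.968 between C1 libraries, 0.926 to 0.936 between C3 libraries and 0.900 to 0.940 between the groups. The library of batch 2 at C3 had the lowest correlation with each C1 library, at 0.900 to 0.909. The hepatocyte markers were present in all 6 libraries, with ALB, the gene of albumin, at 7578 CPM or more.

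Of 11631 features tested, 821 (7.06%) were called, which required a Benjamini-Hochberg adjusted p under 0.05 in edgeR's quasi-likelihood test and a fold change of at least 1.5. There were 370 rising features (3.18%) of 363 genes and 451 falling features (3.88%) of 433 genes. A further 10437 features were too low to be tested. After thinning to equal totals 686 features were called, 296 rising and 390 falling. The sign was the same in all 3 batches for 806 of the 821, and the libraries of the groups did not overlap for 783. Among all features tested the groups did not overlap in 26.2%, with C3 above in 12.5% and below in 13.7%. The count depended on single libraries, being 386 without the C1 library of batch 2, 386 without the C3 library of batch 2 and 1007 without the C3 library of batch 3. In 284 features, 87 rising and 197 falling, the call held whichever of the 6 libraries was left out.

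Together the falling features took 167979 CPM at C1 and 81886 CPM at C3, and the rising features took 27045 and 48430 CPM. The median log2 change of the rising features was 0.93, with 0.81, 1.26 and 0.71 in batches 1, 2 and 3. For the falling features it was -1.10, with -0.99, -1.44 and -0.88. Batch 2 thus had the largest median in both directions among these 3 batches, and it is the batch of the C3 library farthest from C1. Changes of at least 4-fold were fitted for 54 rising and 55 falling features, and 206 rising and 191 falling features changed by less than 2-fold. Of the 923 genes with several tested features, 116 had a called feature, and in 21 all tested features were called in the same direction. No pair was called in opposite directions, which only genes with several calls could show.

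**Figure D1:**
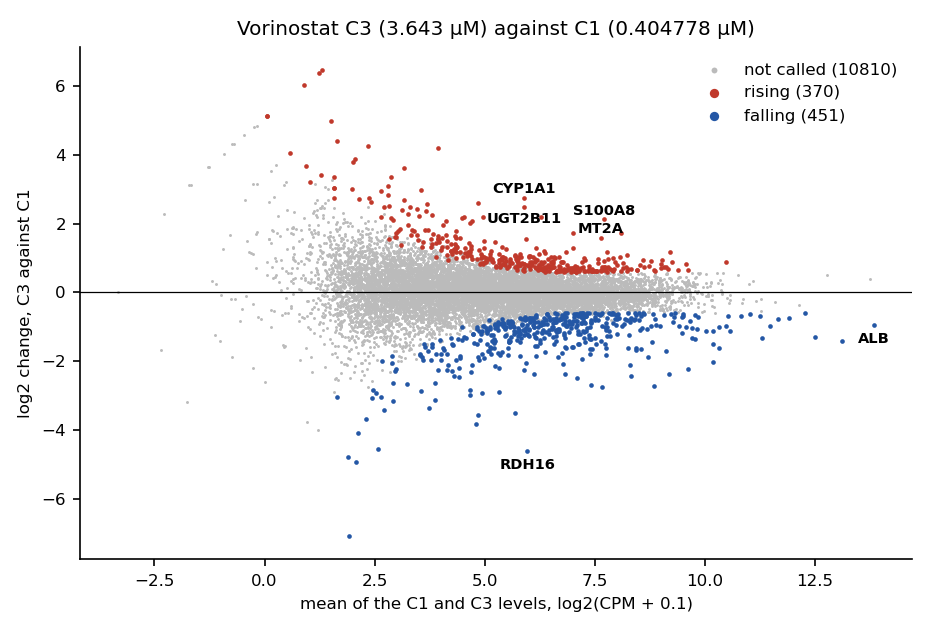
Each dot is a tested feature, with the mean of its C1 and C3 levels as log2(CPM + 0.1) on the x axis and the fitted log2 change of C3 against C1 on the y axis. The 451 falling features (blue) include ALB at the right edge, and the largest fitted changes at the left edge belong to features with few counts, for which the size is uncertain.

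Promoters of 4 genes with large changes among those named by rule were read from RefSeq (GRCh38.p14), from 250 bases before to 50 bases after the start of transcription. They are shown because these genes mark both ends of the response, CYP1A1 and BEX5 rising and RDH16 and HRG falling. The window of CYP7A1, which fell more than HRG, is not shown here. Capitals mark the letters TATAAA (the core of the TATA box), the letters CCAAT (the CCAAT box) and the letters GGGCGG (the core of the GC box), on either strand, and the matches shown do not overlap. The HNF1 motif was searched too and was not found in these windows. The windows lie at chr15:74725479-74725778 (minus strand), chrX:102155928-102156227 (minus strand, the first of 2 listed), chr12:56957559-56957858 (minus strand) and chr3:186665764-186666063 (plus strand), in this order.
CYP1A1: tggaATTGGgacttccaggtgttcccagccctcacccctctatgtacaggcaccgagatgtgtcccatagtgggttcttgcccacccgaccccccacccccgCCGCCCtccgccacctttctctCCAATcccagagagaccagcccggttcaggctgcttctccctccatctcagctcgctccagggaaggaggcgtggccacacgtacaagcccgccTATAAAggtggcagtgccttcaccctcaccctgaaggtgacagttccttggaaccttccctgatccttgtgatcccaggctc
BEX5: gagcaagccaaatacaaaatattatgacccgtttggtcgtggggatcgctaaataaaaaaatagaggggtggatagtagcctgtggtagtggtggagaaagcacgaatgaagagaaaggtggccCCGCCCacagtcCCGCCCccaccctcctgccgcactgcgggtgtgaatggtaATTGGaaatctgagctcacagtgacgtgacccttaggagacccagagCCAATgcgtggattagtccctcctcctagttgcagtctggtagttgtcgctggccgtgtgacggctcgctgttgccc
RDH16: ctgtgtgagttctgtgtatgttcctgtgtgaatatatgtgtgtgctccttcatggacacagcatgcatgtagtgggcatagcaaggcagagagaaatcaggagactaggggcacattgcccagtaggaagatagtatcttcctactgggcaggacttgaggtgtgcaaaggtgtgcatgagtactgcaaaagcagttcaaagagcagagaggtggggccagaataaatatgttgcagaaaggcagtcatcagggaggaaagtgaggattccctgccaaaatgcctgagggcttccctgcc
HRG: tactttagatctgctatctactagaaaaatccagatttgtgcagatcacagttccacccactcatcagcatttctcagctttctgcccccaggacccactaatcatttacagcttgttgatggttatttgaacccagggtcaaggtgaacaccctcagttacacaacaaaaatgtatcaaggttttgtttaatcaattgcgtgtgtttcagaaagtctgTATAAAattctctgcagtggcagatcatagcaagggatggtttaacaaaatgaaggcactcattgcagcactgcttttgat
The promoters of CYP1A1 and HRG each held 1 TATAAA, and those of CYP1A1 and BEX5 held CCAAT and GGGCGG. The RDH16 window held none of these motifs.

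A promoter was listed for 8479 of the 10539 genes tested, for 289 of the 363 rising genes and for 337 of the 433 falling genes. TATAAA stood in 12.8% of the rising and 12.2% of the falling promoters, in 5.99% of those of all genes tested and in 11.5% of all promoters of the table. GGGCGG stood in 63.0% of the rising and 53.4% of the falling promoters and in 68.4% of those of genes tested. CCAAT differed less, with 41.2%, 40.9% and 37.3%. The HNF1 motif was found in 2 of the 337 falling promoters (0.593%) and 0 of the 289 rising ones. Among genes tested it stood in 6 of 8479 promoters (0.0708%). These shares are descriptions of the windows and were not tested.

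Among rising genes with at least 50 counts in the higher group, the largest change was that of CYP1A1, a cytochrome P450 induced through the aryl hydrocarbon receptor. CYP1A1_10775 lay at 21.2, 12.2 and 14.1 CPM in batches 1, 2 and 3 at C1 and at 71.9, 158 and 81.8 CPM at C3. The groups did not overlap, and the fitted difference was 2.75 log2 units (SE 0.352, n = 3 per group, edgeR adjusted p = 1.85e-06). The other CYP1A1 feature, CYP1A1_1698, rose from 2 counts to 28 counts over the 3 libraries, a ratio of 25.7 with an exact 95% binomial interval from 6.49 to 223 that covers counting error only. Its call was lost without the C3 library of batch 2 (edgeR adjusted p up to 0.241 over the leave-outs) and without each C1 library. DESeq2 gave it no adjusted p, and after thinning and when the 6 libraries were fitted alone it was too low to be tested.

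S100A8 and S100A9, which encode the subunits of calprotectin, rose together. S100A8 had the smallest p-value of all rising features. It lay at 68.3, 68.5 and 96.4 CPM at C1 and at 356, 361 and 310 CPM at C3. The C3 libraries agree closely and lie far above C1, by 2.13 log2 units (SE 0.166, edgeR adjusted p = 6.86e-11). S100A9 lay at 50.0, 57.9 and 68.8 CPM at C1 and at 178, 250 and 165 CPM at C3, again without overlap (log2 change 1.73, SE 0.166, edgeR adjusted p = 7.21e-09).

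BEX5, of a brain-expressed X-linked family, lay at 14.4, 5.45 and 6.43 CPM at C1 and at 44.2, 68.3 and 33.0 CPM at C3 (log2 change 2.59, SE 0.322, edgeR adjusted p = 1.02e-06). The groups did not overlap. UGT2B11, a member of the UDP-glucuronosyltransferase family that conjugates lipophilic compounds, lay between 16.7 and 19.9 CPM at C1 and between 79.7 and 113 CPM at C3 (log2 change 2.48, SE 0.279, edgeR adjusted p = 1.57e-07). UGT2B genes are close copies, so the probe may also read a relative. SLC16A12, a monocarboxylate transporter, was the steadiest of these genes at C1, at 28.7, 27.3 and 28.0 CPM, and reached 110, 171 and 103 CPM at C3 (log2 change 2.196, SE 0.2304, edgeR adjusted p = 4.13e-08). CYP4B1, another cytochrome P450, rose from 104 to 148 CPM to 246 to 637 CPM (log2 change 1.73, SE 0.244, edgeR adjusted p = 9.18e-06).

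The remaining rising genes named by this rule were CPA4 (a carboxypeptidase), CNTN1 (a neural cell adhesion molecule), SPP1 (osteopontin), PRKAR2B (a regulatory subunit of protein kinase A) and NDNF (a secreted neurotrophic protein). They started between 7.58 and 11.2 CPM and reached 37.0 to 51.2 CPM, with log2 changes from 2.02 to 2.19 and edgeR adjusted p-values between 2.87e-05 and 0.00134. For CPA4 the mean of 51.2 CPM at C3 had an SD of 41.6, since batch 2 lay at 99.3 CPM and batches 1 and 3 at 28.3 and 26.1 CPM. None of the 12 rising genes overlapped between the groups, and the call of each held in all 6 leave-outs. They were picked as the largest calls with the same sign in all batches, so the lack of overlap is a description. It was also found in 783 of all 821 calls and in 26.2% of all features tested.

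RDH16, a retinol dehydrogenase of liver, showed the largest fall among genes with at least 50 counts at C1. It lay at 108, 158 and 95.5 CPM at C1 and at 5.89, 2.53 and 6.18 CPM at C3. The groups were far apart, and the log2 change was -4.62 (SE 0.341, edgeR adjusted p = 2.96e-11). CYP7A1, the rate-limiting enzyme of bile acid synthesis, lay at 35.03, 67.5 and 52.7 CPM at C1 and at 4.12, 1.27 and 5.50 CPM at C3 (log2 change -3.84, SE 0.450, edgeR adjusted p = 3.95e-07). Its groups did not overlap either.

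Plasma proteins made in the liver filled much of the list of falling genes. HRG, the histidine-rich glycoprotein, lay at 40.2, 66.2 and 53.4 CPM at C1 and at 4.71, 3.80 and 4.81 CPM at C3 (log2 change -3.58, SE 0.421, edgeR adjusted p = 3.95e-07). AHSG (fetuin-A) fell from a mean of 45.0 ± 16.1 to 5.73 ± 2.29 CPM (SD, n = 3), and AFM (afamin) from 70.7 ± 12.5 to 9.44 ± 3.03 CPM. The complement factor H-related genes CFHR3 and CFHR4 fell from 95.0 ± 19.3 to 8.35 ± 3.97 CPM and from 26.1 ± 1.80 to 2.83 ± 3.18 CPM. These genes are close copies of each other, so their probes may share targets. In CFHR4 the C3 mean was set by batch 1, at 6.48 CPM, while batches 2 and 3 lay at 0.633 and 1.37 CPM.

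SLC22A7, an organic anion transporter of the hepatocyte, fell from 24.1 ± 1.503 to 2.30 ± 0.564 CPM. G6PC, the glucose-6-phosphatase that releases glucose from liver, fell from 54.3 ± 20.0 to 7.13 ± 1.04 CPM. MGAM2, a maltase-glucoamylase relative, fell from 20.5 ± 2.65 to 2.74 ± 0.928 CPM. LSP1, an actin-binding protein best known from leukocytes, fell from 44.7 ± 5.08 to 6.24 ± 3.90 CPM. For the last 4 the edgeR adjusted p lay between 5.91e-06 and 0.00404. None of these 11 falling genes overlapped between the groups, and each call held in all 6 leave-outs. They too were picked as the largest calls, and 26.2% of all features tested did not overlap.

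**Figure D2:**
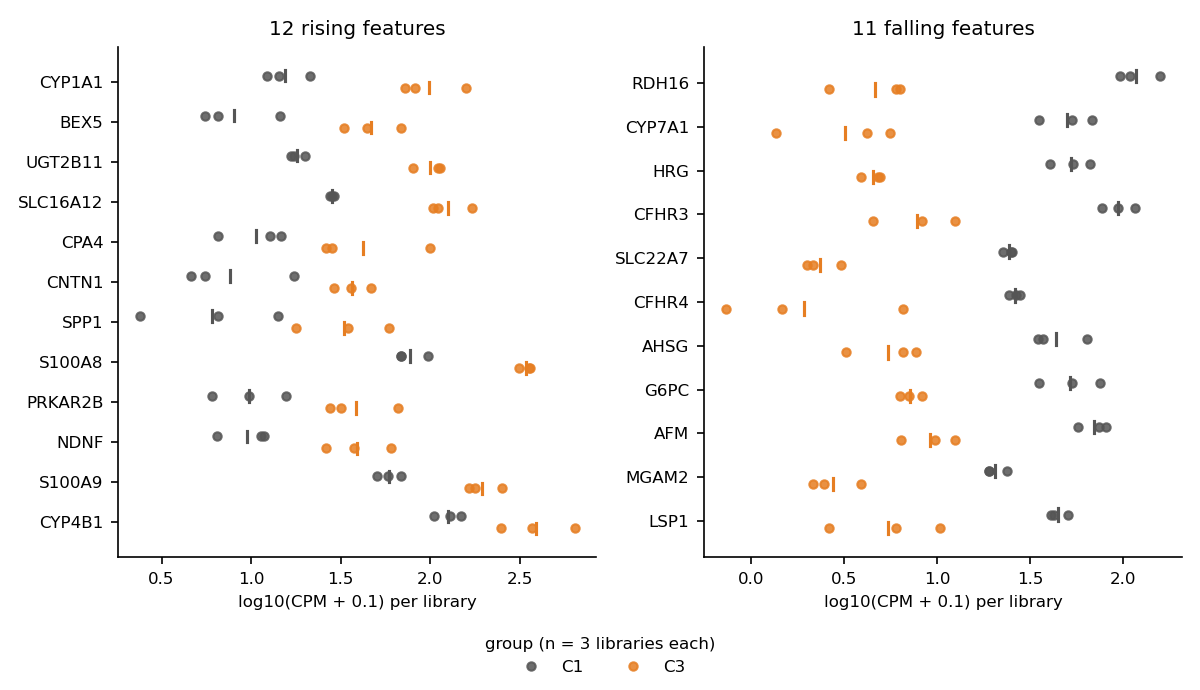
Levels of 12 rising and 11 falling features in each library, as log10(CPM + 0.1) on the x axis, with C1 in grey and C3 in orange (n = 3 libraries each) and a bar at the mean of the plotted values. In every row the C3 points lie wholly to the right (rising) or wholly to the left (falling) of the C1 points. The rows were picked as the largest calls with the same sign in all batches.

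The targets of the drug are described first among the gene lists. Over all features tested 3.18% rose and 3.88% fell, the shares to set beside each list. The 15 tested features of the histone deacetylases had a median log2 change of -0.02, beside 0.03 over all features tested. Of the 15, 1 was called (6.67%), near the 7.06% called over all features tested. HDAC6_90749, one of 4 probes for the mainly cytoplasmic deacetylase of tubulin, lay at 745, 949 and 668 CPM at C1 and at 497, 413 and 525 CPM at C3. Its groups did not overlap, and its log2 level fell by 0.72 (SE 0.139, edgeR adjusted p = 0.00078). The call held in each leave-out (edgeR adjusted p up to 0.0144). The other HDAC6 features had log2 changes of -0.30 to -0.49 and were not called. HDAC2, a nuclear class I enzyme, lay at 288 ± 13.0 CPM at C1 and 347 ± 12.4 CPM at C3 (log2 change 0.27, SE 0.136, edgeR adjusted p = 0.258). HDAC1 and HDAC3, of the same class, had log2 changes of 0.04 and 0.40 with edgeR adjusted p-values of 0.966 and 0.335. Among the class IIa genes, HDAC4, HDAC5_91427, HDAC7 and both tested HDAC9 features had means below 16 CPM in both groups and were not called. HDAC8, HDAC10 and HDAC11 were likewise low and uncalled, with log2 changes of 0.12, -0.02 and 0.43. HDAC5_90747 and HDAC9_14516 had 0 CPM in both groups and were not tested.

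Of 23 features of acetyltransferases, bromodomain proteins and corepressor subunits, 1 rose and 0 fell. The rising share was 4.35%, near the 3.18% over all features tested, of which 3.88% fell. The rising feature was SIN3A, a scaffold of a deacetylase complex, at 12.0 ± 4.63 CPM at C1 and 29.0 ± 5.16 CPM at C3 (log2 change 1.32, SE 0.332, edgeR adjusted p = 0.010). That call was lost without the batch 2 library of either group (edgeR adjusted p up to 0.130). MTA2, a subunit of the NuRD complex with the highest level of the list at C1, lay at 268 ± 10.0 and 229 ± 18.9 CPM and was not called.

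Of 16 tested features of genes often described as responding to such inhibitors, 3 rose (18.8%, beside 3.18% of all features tested) and 0 fell, also in each leave-out, with a median of 0.50, or 0.39 without the gene that lay at or under 3 counts in every library of both groups. The rising ones were CLU_15548 (clusterin, a secreted chaperone, 41.9 to 87.3 CPM) and the metallothioneins MT2A and MT1X. The linker histone gene HIST1H1C, with the highest level of the list at C1, lay at 150 ± 24.0 and 164 ± 17.3 CPM (edgeR adjusted p = 0.718). CDKN1A, the cell-cycle inhibitor p21, lay under 1 CPM in both groups and was not tested.

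Hepatocyte functions fell across several lists. Of 26 tested features of secreted liver proteins, 18 fell and 0 rose, and the median log2 change was -0.76. ALB lay at 18837, 23046 and 16570 CPM at C1 and at 14386, 7578 and 8185 CPM at C3. The groups did not overlap, and the difference was -0.96 log2 units (SE 0.181, edgeR adjusted p = 0.000622). Haptoglobin (HP), which binds free haemoglobin, fell from 12994 ± 1980 to 4847 ± 1651 CPM, transferrin (TF), the iron carrier, from 3599 ± 613 to 1436 ± 455 CPM, and the fibrinogen chain FGA from 8221 ± 1978 to 3383 ± 458 CPM. Transthyretin (TTR), the thyroid hormone carrier, was the only tested feature of the list with a positive change, at 5849 ± 446 and 8270 ± 569 CPM, and was not called (edgeR adjusted p = 0.0825). Of these 26 features between 12 and 19 fell when a library was left out, fewest without the C3 library of batch 2.

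Among 31 features of cytochrome P450 and conjugating enzymes, 13 fell and 2 rose, with a median of -0.86. The falling features included CYP2C8 (190 to 36.8 CPM), CYP3A4_88797 (193 to 64.1 CPM), CYP2E1 (128 to 38.3 CPM) and CYP2B6 (9.59 to 1.09 CPM), all drug-metabolising enzymes. Both rising features of the list were of CYP1A1. CYP4B1 and UGT2B11, which belong to the same families and rose, are not on it. The call of CYP2B6 held in 1 of 6 leave-outs (edgeR adjusted p up to 0.134). CES1, a carboxylesterase with the highest level of the list at C1, lay at 2653 ± 318 and 2337 ± 268 CPM and was not called (edgeR adjusted p = 0.448). Between 8 and 12 features of the list fell when a library was left out, fewest without the C3 library of batch 2.

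Bile acid synthesis and liver transport had the most negative median of the lists, at -1.33, with 11 of 23 tested features falling and 0 rising. BAAT, which conjugates bile acids to glycine or taurine, lay at 1167, 1443 and 1191 CPM at C1 and at 554, 264 and 678 CPM at C3 (log2 change -1.35, SE 0.229, edgeR adjusted p = 0.000163). The uptake transporters SLCO1B1 and SLCO2B1 fell from 177 to 41.8 CPM and from 235 to 61.5 CPM. ABCG8, a subunit of the sterol exporter, fell from 66.2 to 14.3 CPM. The exporter ABCB1 lay at 162 and 152 CPM and was not called.

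Of 25 tested features of hepatocyte transcription factors and nuclear receptors, 1 rose and 1 fell, 4.0% each and near the 3.18% and 3.88% over all features tested, and the median was -0.23. HNF4A, a main hepatocyte regulator, lay at 19.7 and 14.6 CPM with a log2 change of -0.42 that was not called. NR5A2, a nuclear receptor of bile acid control, fell from 86.3 ± 4.00 to 50.2 ± 11.9 CPM (log2 change -0.79, SE 0.223, edgeR adjusted p = 0.0228). NR2F1, an orphan nuclear receptor, rose from 17.0 ± 5.34 to 41.3 ± 11.5 CPM (log2 change 1.25, SE 0.315, edgeR adjusted p = 0.0101). Neither call was stable. NR5A2 kept it only without the C3 library of batch 3 (edgeR adjusted p otherwise up to 0.129), and NR2F1 lost it without the batch 1 library of either group (up to 0.0964) and after thinning (0.0567).

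In the metabolic lists, 5 of 18 features of the urea cycle, amino acid and glucose metabolism fell (27.8%) and 1 rose (5.56%), with a median of -0.49. The rising feature was PYGL, the liver glycogen phosphorylase, and its call was lost without batch 1 or 2 of either group (edgeR adjusted p up to 0.2). A further 5 of 22 features of fatty acid oxidation and lipid handling fell (22.7%) and 1 rose (4.55%), with a median of -0.44. AGXT, the peroxisomal enzyme that clears glyoxylate, lay at 632, 771 and 546 CPM at C1 and at 284, 107 and 329 CPM at C3 (log2 change -1.44, SE 0.248, edgeR adjusted p = 0.000197). FABP1, the liver fatty acid binding protein, fell in both of its features. FABP1_11582 lay at 249, 359.5 and 278 CPM at C1 and at 47.1, 21.5 and 70.1 CPM at C3 (log2 change -2.69, SE 0.238, edgeR adjusted p = 1.39e-09), without overlap, and FABP1_2298 fell by 2.14 on the log2 scale. FABP4, the form known from adipocytes and macrophages, rose from 2.72 ± 0.828 to 11.8 ± 1.28 CPM (log2 change 2.17, SE 0.405, edgeR adjusted p = 0.000528). Of 28 features of cholesterol and fatty acid synthesis 2 fell (7.14%, beside 3.88% of all features tested), HMGCS1 (726 to 470 CPM) and CYP51A1_92320 (309 to 198 CPM). The call of CYP51A1_92320 was lost in 3 leave-outs, without batch 1 or 2 at C1 or batch 2 at C3 (edgeR adjusted p up to 0.152). That of HMGCS1 held only without batch 3 at C3 (otherwise up to 0.241), so that 0 to 4 features of the list fell over the leave-outs, with 0 without batch 1 at C1.

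**Figure D3:**
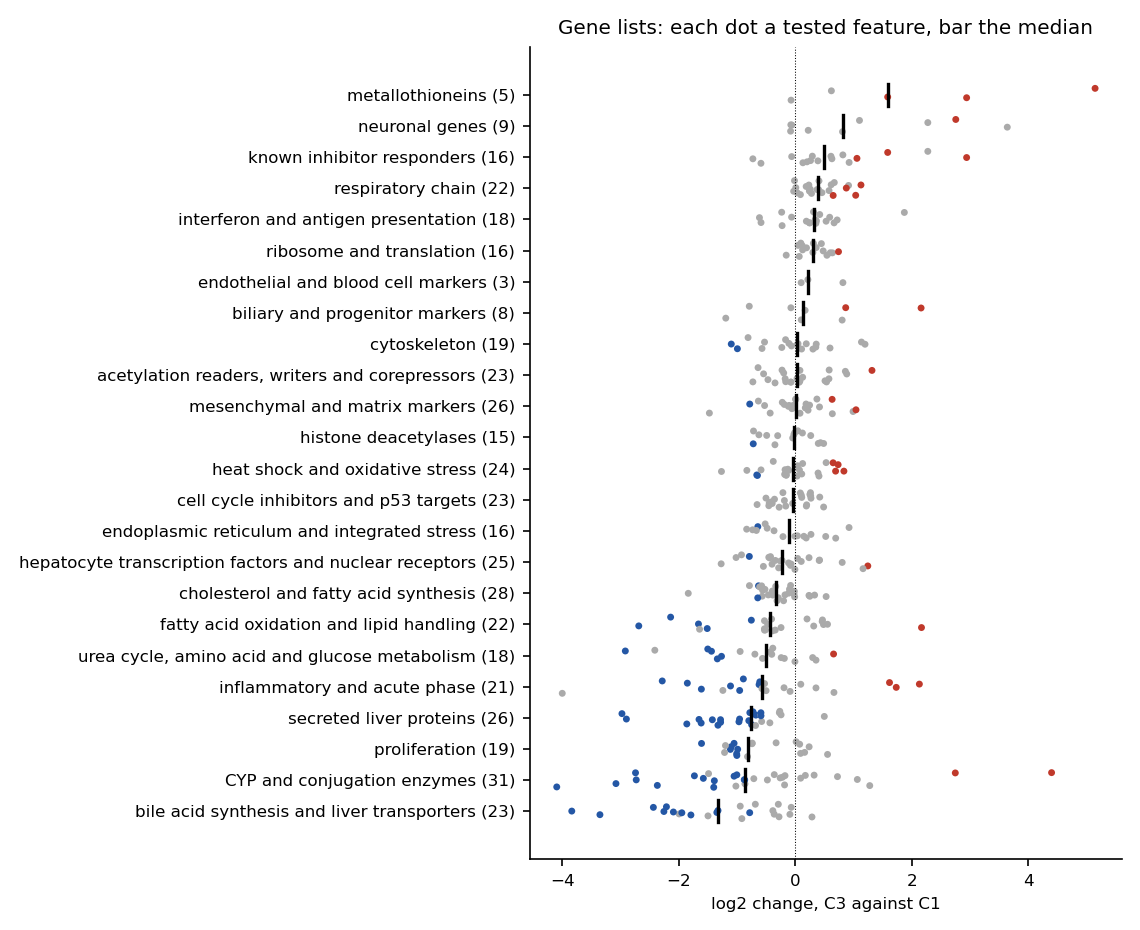
Each dot is a tested feature of a gene list (number tested in brackets), the x axis is the fitted log2 change of C3 against C1, red and blue mark rising and falling calls, and the bar is the list median. The lists of secreted liver proteins, proliferation, P450 enzymes and bile acid synthesis lie at the bottom with medians of -0.76 to -1.33, while those of histone deacetylases and of p53 targets are centred near 0.

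Of 19 tested features of proliferation 7 fell and 0 rose, with a median of -0.82. The falling ones were TYMS (thymidylate synthase), MKI67, TOP2A, CDK1, CCNA2, CCNB1 and BUB1, and most of these act late in the cell cycle. TYMS lay at 879, 897 and 941 CPM at C1 and at 355, 375 and 641 CPM at C3 (log2 change -0.99, SE 0.215, edgeR adjusted p = 0.00266). The replication licensing genes MCM3 to MCM7 had log2 changes between 0.02 and 0.24, and none was called. CCNB1, cyclin B1, fell from 53.4 ± 18.0 to 17.5 ± 2.35 CPM, and its call was lost without batch 3 at C1 or without batch 1 or 2 at C3 (edgeR adjusted p up to 0.140). The calls of TOP2A, CCNA2 and BUB1 were lost in 4, 2 and 2 of the 6 leave-outs. Between 3 and 7 features of the list fell when a library was left out, fewest without the C1 library of batch 3. Cell cycle inhibitors and p53 targets held no call among 23 tested, with a median of -0.04, and MDM2, the p53 ubiquitin ligase, lay at 5085 ± 90 and 3974 ± 500 CPM (edgeR adjusted p = 0.107).

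Metallothioneins, small proteins that bind zinc and copper, rose in 3 of 5 tested features and fell in 0. MT2A lay at 95.9, 70.1 and 131 CPM at C1 and at 301, 319 and 273 CPM at C3, without overlap (log2 change 1.59, SE 0.188, edgeR adjusted p = 4.37e-07). MT1X rose from 1.60 ± 1.64 to 10.6 ± 1.56 CPM (edgeR adjusted p = 0.00168). MT1A had 0 counts in the C1 libraries and was at least 1.62-fold higher at C3 by the floor of 3 counts per library, and its call was lost after thinning (edgeR adjusted p = 0.12) and without the batch 2 library of either group. The list median was 1.59, or 0.70 with MT1A at its bound. Metallothionein genes are close copies, and MT1E and MT1M, at log2 changes of -0.07 and 0.62, were not called.

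Of 16 features of the endoplasmic reticulum and integrated stress responses, HSPA5 (the chaperone BiP) was the 1 call (6.25%, beside 3.88% falling over all features tested), falling from 311 ± 17.1 to 200 ± 32.5 CPM (edgeR adjusted p = 0.00453), a fall under 1.5-fold without the C3 library of batch 1. Of 24 features of heat shock and oxidative stress, 4 rose (16.7%, beside 3.18%) and 2 fell (8.33%, beside 3.88%). The rising ones included TXNRD1 (thioredoxin reductase, 233 to 376 CPM) and SRXN1 (sulfiredoxin, 153 to 256 CPM). Only 1 feature of the list rose without the batch 2 library of either group. Both features of GCLM, the modifier subunit of glutathione synthesis, fell, from 1073 to 685 CPM and from 665 to 421 CPM. Without the C3 library of batch 2, both GCLM features, at adjusted p-values under 0.05, fell by less than the required fold.

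Acute phase and inflammatory genes split. Of 21 tested features, 8 fell and 3 rose, and 5 fell without the C3 library of batch 2. LBP, which binds lipopolysaccharide, fell from 1940 ± 286 to 636 ± 305 CPM, CRP from 33.8 to 9.44 CPM and SAA4 from 31.6 ± 4.65 to 6.27 ± 5.86 CPM. The chemokines CXCL1 and CXCL2 fell too, with log2 changes of -0.93 and -0.97 with the replicate block. The call of CXCL2 held in all 6 leave-outs and that of CXCL1 in 5. SAA1 and SAA2, the inducible serum amyloids, lay at 376 and 401 CPM and at 1985 and 1738 CPM and were not called. The rising features were S100A8, S100A9 and CCL20, a chemokine, at 3.92 and 11.5 CPM. The call of CCL20 was lost without batch 2 or 3 at C1 or batch 3 at C3 (edgeR adjusted p up to 0.165) and in the 6 libraries alone. Interferon and antigen presentation genes held no call among 18 tested, with 13 positive changes and a median of 0.33, while 1 rose with the replicate block and 2 rose in the 6 libraries alone. Of 22 features of the respiratory chain 4 rose (18.2%, beside 3.18% of all features tested), namely NDUFA4, COX7A2, SDHB and PPARGC1A, a coactivator of mitochondrial genes. No call of this list was made without the C3 library of batch 2, and without the C1 library of batch 2 those of NDUFA4, COX7A2 and SDHB were lost. In 16 ribosome and translation features, RPS3 was the 1 call, rising (6.25%, beside 3.18%) and lost without the batch 2 library of either group. Cytoskeletal genes held 2 falling features of 19 (10.5%, beside 3.88%), GSN (gelsolin, 502 ± 10.2 to 235 ± 51.3 CPM) and TUBA1B (122 to 62.2 CPM). The call of TUBA1B was lost in 3 of 6 leave-outs (edgeR adjusted p up to 0.279). Of 9 tested neuronal features STX1A, a syntaxin, was called, rising from 1.31 ± 0.582 to 8.89 ± 6.56 CPM, and its call was lost without the C3 library of batch 2 (edgeR adjusted p = 0.0871).

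Markers of other cell types that such a culture could hold were read beside these changes. The summed level of the biliary and progenitor markers was 214 to 247 CPM at C1 and 268 to 321 CPM at C3, and 2 of 8 tested features rose, KRT19_10816 (28.4 to 51.8 CPM) and SPP1. The median log2 change of the 8 was 0.14, and 3 of them had negative changes, down to -1.19, without a call. In 4 of the 6 leave-outs, those without a batch 1 or batch 2 library, 1 feature of this list rose. The call of KRT19_10816 was lost in these 4 and after thinning (edgeR adjusted p = 0.0619). Of the 21 features of this list 13 were not tested, and KRT7, EPCAM, CLDN4, CFTR and GPC3 lay under 1 CPM in both groups. Mesenchymal and matrix markers summed to 6201 to 6665 CPM at C1 and 5859 to 7669 CPM at C3, most of it from FN1, which hepatocytes also express. Of 26 tested, 2 rose (7.69%, beside 3.18% of all features tested), among them SPARC_24939 (27.6 to 56.1 CPM). Only COL6A1 (53.3 to 31.1 CPM) fell, which is 3.85% beside 3.88% of all features tested. The calls of SPARC_24939 and COL6A1 were lost after thinning (edgeR adjusted p = 0.0897 and 0.0589). That of COL6A1 held in 1 of 6 leave-outs (up to 0.195) and was not made from the 6 libraries alone. None of the list rose without the batch 2 library of either group. VIM lay under 2 CPM and THY1 at 0 CPM. Endothelial and blood cell markers summed to 45.0 to 48.3 CPM and 44.7 to 66.4 CPM, with 0 of 3 tested called, and VWF, CDH5, PTPRC, CD163, CD3E, HBB and HBA1 at 0 CPM in both groups. Since probes differ in efficiency, a low level of a marker does not show that a cell type is absent. The part of these cell types in the changes above was not tested beyond these levels.

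The neighbouring concentrations place C3 within the dose series of vorinostat. At C2 (1.214333 µM) 2 of 11631 features (0.0172%) were called against C1, S100A8 rising and SAFB falling, where 330 had an unadjusted p under 0.05. At the top concentration, C5 (23.5 µM), 4475 features (38.5%) were called against C3, 1961 rising (16.9%) and 2514 falling (21.6%), and at C4 (10.929 µM) 1680 (14.4%). These comparisons share libraries with that of C3 and C1, so their values are set side by side only. S100A8 lay at 77.8, 148, 342, 1171 and 933 CPM from C1 to C5, and rose from C3 to C5 by 1.45 log2 units (SE 0.156, edgeR adjusted p = 3.6e-09). MT2A lay at 99.2, 115, 298, 864 and 2221 CPM, and rose from C3 to C5 by 2.90 (SE 0.188, edgeR adjusted p = 2.86e-14). BAAT lay at 1267, 1289.6, 499, 27.7 and 19.4 CPM, with a log2 change of -4.71 between C3 and C5 (SE 0.306, edgeR adjusted p = 3.23e-14). In the lists of secreted liver proteins, of P450 and conjugating enzymes and of bile acid synthesis and transport, 25 of 26, 25 of 31 and 20 of 23 tested features were called as falling from C3 to C5.

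Some features that rose at C3 were lower at C5 than at C3. By the size of that fall, the 5 largest were RIPOR2, CXCL13, CYP4B1, TCIM and UGT2B11. CXCL13, a chemokine that attracts B cells, lay at 215, 194 and 175 CPM at C1, at 546, 410 and 275 CPM at C3 and at a mean of 8.48 ± 2.13 CPM at C5. Its change from C3 to C5 was -5.64 log2 units (SE 0.334, edgeR adjusted p = 4.03e-15). CYP4B1 went from 127 CPM at C1 through 418 at C3 and 226 at C4 to 27.1 CPM at C5 (C5 against C3 -3.98, SE 0.295, edgeR adjusted p = 7.29e-13). UGT2B11 had its highest mean at C4, 190 CPM, and lay at 9.78 ± 6.05 CPM at C5 (C5 against C3 -3.44, SE 0.329, edgeR adjusted p = 2.69e-10). RIPOR2, a regulator of small GTPases, lay at 26.3 ± 14.7 CPM at C3 and had 0 counts in the C5 libraries, so C3 was at least 12.6-fold higher by the floor of 3 counts per library. TCIM, a regulator of beta-catenin signalling, lay at 10.0, 25.4 and 1.74 CPM at C1, C3 and C5. The C3 against C1 calls of RIPOR2 and TCIM were lost in 4 and 3 of the 6 leave-outs (edgeR adjusted p up to 0.160 and 0.0902).

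CYP1A1_10775 followed the same course, at 15.9, 18.3, 104, 63.0 and 13.5 CPM from C1 to C5, and its log2 change from C3 to C5 was -2.89 (SE 0.375, edgeR adjusted p = 1.46e-07). The means at C1 and C5 differ by less than the SD of either group, 4.76 and 5.49 CPM. The low CYP1A1_1698 lay at 0.194, 1.56, 5.85, 6.31 and 3.78 CPM and was not called from C3 to C5 (log2 change -0.68, SE 0.911, edgeR adjusted p = 0.579). SPP1 and PRKAR2B also fell from C3 to C5, from 37.0 to 11.1 CPM and from 41.7 to 5.35 CPM. The other rising genes of the first 12 were higher at C5 (BEX5, CPA4, CNTN1, S100A8 and S100A9), lower (SLC16A12), or not called (NDNF, edgeR adjusted p = 0.61).

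The opposite course, a fall at C3 and a higher level at C5, was found for HHAT, CNGA1, ARNTL, BTG1 and ADARB1 as the 5 with the largest change from C3 to C5. ADARB1, an RNA-editing deaminase, lay at 99.3, 108 and 98.7 CPM at C1, at 40.6, 37.3 and 44.7 CPM at C3 and at 128 ± 37.7 CPM at C5. The C3 libraries lay below the others without overlap with C1, and the log2 changes were -1.32 from C1 to C3 (SE 0.212, edgeR adjusted p = 7.04e-05) and 1.65 from C3 to C5 (SE 0.215, edgeR adjusted p = 1.51e-07). ARNTL, which encodes the clock factor BMAL1, lay at 10.0, 2.53 and 18.3 CPM at C1, C3 and C5. BTG1, an antiproliferative gene, lay at 42.0, 21.5 and 69.4 CPM. Their calls at C3 were lost in 5 of the 6 leave-outs each and after thinning (edgeR adjusted p = 0.2 and 0.205). HHAT, an acyltransferase of hedgehog proteins, had 71 counts over the C1 libraries and 1 over the C3 libraries, a ratio of 38.6 (exact 95% binomial interval 6.71 to 1546). Its call was lost without the C3 library of batch 2 (edgeR adjusted p = 0.0504), DESeq2 gave it no adjusted p, and after thinning and in the 6 libraries alone it was too low to be tested. CNGA1, a cyclic nucleotide-gated channel, had 50 and 3, a ratio of 9.06 (2.93 to 45.4). The call of CNGA1 did not pass with the batch as a replicate block (edgeR adjusted p = 0.0517) and held in 1 of 6 leave-outs. DESeq2 gave CNGA1 no adjusted p either, and after thinning and in the 6 libraries alone it was too low to be tested. RDH16, the largest fall at C3, was also higher at C5, at 14.1 ± 2.43 against 4.87 ± 2.03 CPM (log2 change 1.52, SE 0.404, edgeR adjusted p = 0.00274), though far below its level at C1.

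**Figure D4:**
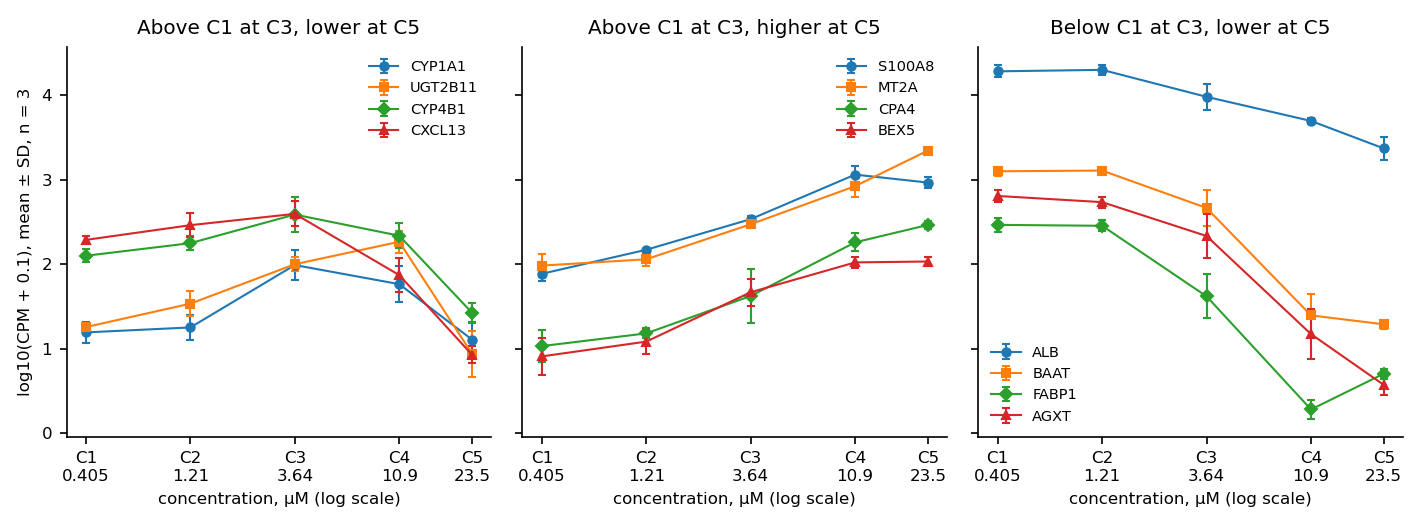
Mean ± SD of log10(CPM + 0.1) over 3 libraries against vorinostat concentration (µM, log scale) for features above C1 at C3 and lower at C5, above C1 at C3 and higher at C5, and below C1 at C3 and lower at C5. CYP1A1_10775 has its highest mean at C3 and lies at 13.5 CPM at C5, S100A8 and MT2A are higher at C4 and C5 than at C3, and the means of AGXT fall at each step from C1 to C5.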

How the data were processed

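TempO-Seq counts of HepaRG lysates were used as the authors deposited them, whole-number read counts per detector probe without normalisation. The submitters' processing notes name bcl2fastq 2.20.422, fastp 0.23.2, STAR 2.7.10b and DESeq2 1.38.0, and the probe annotation and genome build are not given in the sources used here. Of 22069 rows, the last lacked values and was left out, so the table may be incomplete. The paper named with the data describes another experiment and gave style only. The 15 vorinostat libraries were fitted together in R 4.3.3 with edgeR 4.0.16 (filterByExpr, TMM, quasi-likelihood F test) without a batch term, and the contrasts were taken from this fit. P-values were adjusted over the 11631 features tested and measure the spread between cultures of 3 HepaRG batches. Standard errors are the absolute log2 change over the square root of F. Batch medians used log2 CPM with a prior count of 2. The labels tie each replicate number to a HepaRG batch, so same-numbered libraries were taken as pairs. The deviations of the C1 and C3 library of a batch from their group means correlated by 0.0386, -0.0922 and 0.0577. Depth was 1420280 to 4134455 counts in the 6 libraries. A group with at most 3 counts in each library was at the floor. Intervals and floors cover counting error only, since reads are not independent molecules.

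The features named were the 12 largest called changes in each direction with the same sign in 3 batches and at least 50 counts in the higher group, all histone deacetylases, from each list the largest call in each direction and the highest level at C1, the 5 largest opposite changes from C3 to C5 in each direction, and the smallest p in each direction. Some features that these rules name are not reported here. Further list members are named as examples. The members, lists and rules were chosen with earlier results of these data known. The promoters, from RefSeq GRCh38.p14, were matched by symbol, and 18807 of 19470 symbols were in RefSeq. The fit was tested on simulated data. Alternatives were DESeq2 1.42.0, RLE size factors, no filter, the 6 libraries alone, a replicate block, a test against 1.5-fold, thinning, summing per gene and leaving out each library.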

Additional observations from a re-analysis of the deposited data

How the results depend on the processing

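The 821 calls became 859 with DESeq2, 835 with RLE size factors, 795 summed per gene, 887 without a filter, 851 from the 6 libraries alone and 888 with the replicate block, which changed no named call other than that of CNGA1. A test against a 1.5-fold change left 166 calls, 49 rising and 117 falling. When a library was left out, 386 to 1007 features were called, 118 to 473 of them rising and 232 to 534 falling. The lowest counts came without the batch 2 library of C1 (118 rising, 268 falling) or of C3 (154 rising, 232 falling). No called feature changed sign in a setting where it was tested. After summing per gene the signs were not compared. Of 60 named calls 36 held in every leave-out. The calls from C3 to C5 numbered 4475, with 4558 by DESeq2, 4467 by RLE and 4479 with the block.

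Among the named features the sign turned only in some that were not called, with changes near 0 in all libraries together, and the cause was not tested. After thinning the log2 change was -0.016 for CD68, 0.50 for HDAC10 and -0.0807 for HDAC8. HDAC10 was at 0.0027 with the replicate block, and HDAC7 at 0.0166 in the 6 libraries alone. Over the leave-outs the log2 change ranged from -0.12 to 0.20 for CD68_20756, from -0.25 to 0.0321 for FN1_13666, from -0.26 to 0.20 for HDAC10_22403, from -0.68 to 0.54 for HDAC1_2897, from -0.27 to 0.25 for HDAC5_91427, from -0.45 to 0.30 for HDAC7_22460, from -0.0641 to 0.24 for HDAC8_22025, from -0.0365 to 0.23 for HIST1H1C_2950 and from -0.0273 to 0.18 for MLXIPL_18852. The totals of the C3 libraries limit low features, since 3 counts are worth 1.79 to 2.11 CPM there.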

Other observations

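Further gene groups were read after the values had been seen, so their counts are descriptions. Beside each of them stand the 3.18% rising and 3.88% falling over all features tested. Coagulation and fibrinolysis genes had 12 falling and 2 rising features of 24 tested and a median log2 change of -1.11. F7, the factor that starts the extrinsic pathway, lay at 19.0, 31.7 and 24.8 CPM at C1 and at 3.53, 1.90 and 6.87 CPM at C3. SERPIND1, heparin cofactor II, lay at 549, 636 and 425 CPM at C1 and at 151, 41.7 and 107 CPM at C3. In both genes the groups did not overlap, and the log2 changes were -2.63 and -2.42 (SE 0.497 and 0.263, edgeR adjusted p = 0.000603 and 7.55e-08). One of the rising features was SERPINA5, the protein C inhibitor, which lay at 65.5, 40.0 and 46.0 CPM at C1 and at 93.1, 96.1 and 96.2 CPM at C3. Without the C1 library of batch 2 it was not called. Complement components and regulators had 14 falling and 0 rising features of 29, with a median of -0.89. CFHR2 fell from 1742, 2341 and 1505 CPM to 693, 357 and 326.4 CPM (log2 change -2.02, SE 0.208, edgeR adjusted p = 3.59e-08), while the membrane regulators CD46, CD55 and CD59 had positive changes of 0.07 to 0.52 that were not called.

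Mitotic kinesins and spindle genes had 17 falling and 0 rising features of 22, with a median of -1.31, and between 10 and 17 fell when a library was left out, fewest without the C1 library of batch 3. HMMR, a spindle-associated hyaluronan receptor, lay at 542, 513 and 644 CPM at C1 and at 132, 176 and 234 CPM at C3 (log2 change -1.65, SE 0.23, edgeR adjusted p = 7.25e-06). Of 12 features of the aryl hydrocarbon receptor and its targets, both CYP1A1 features rose and ALDH3A1, an aldehyde dehydrogenase, fell from 207, 254 and 188 CPM to 103, 110 and 88.0 CPM (log2 change -1.11, edgeR adjusted p = 0.000311). With DESeq2, after thinning and in the 6 libraries alone, 1 feature of this group rose. AHR itself lay at 48.9 and 49.0 CPM. Of 20 clock features 2 rose and 2 fell, where 3.18% rose and 3.88% fell over all features tested. DBP, an output factor of the clock, lay at 6.89, 2.34 and 1.29 CPM at C1 and at 18.3, 19.0 and 8.93 CPM at C3 (log2 change 2.27, SE 0.593, edgeR adjusted p = 0.0130). NR1D2 rose by 0.87, ARNTL fell by 1.98 and CRY1 fell by 0.84 on the log2 scale. The calls of ARNTL and CRY1 each held in 1 of 6 leave-outs (edgeR adjusted p up to 0.133 and 0.290), and no clock feature fell after thinning. No clock feature was called in either direction without the C1 library of batch 2, without the C1 library of batch 3 or without the C3 library of batch 1. Of 12 S100 features, S100A8, S100A9 and S100A10 rose and S100A2 and S100A3 fell, with S100A2 at 233, 182 and 295 CPM at C1 and 93.7, 83.5 and 106 CPM at C3 (log2 change -1.33, SE 0.191, edgeR adjusted p = 1.12e-05). The libraries of S100A10 overlapped between the groups. The calls of S100A10 and S100A3 were each lost in 4 of 6 leave-outs (edgeR adjusted p up to 0.322 and 0.203), and that of S100A10 after thinning.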
